A study of Mus musculus with 6 samples.

Results

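The genes described here are those of cholesterol synthesis and of sterol handling after lipoprotein uptake: 27 genes among 55450 gene identifiers in the deposited count table. They were listed by gene name from the known pathway, with no threshold on measured values but with earlier results of these data known. The list holds 22 genes for enzymes and an enzyme scaffold of the route to cholesterol, in pathway order, and 5 genes that release, carry or exchange sterols inside the cell. The working name of the list also mentions LDL uptake. The members that bear on it are lysosomal genes that act on cholesterol after a lipoprotein has been taken up, and no member is a lipoprotein receptor, so the 5 are called sterol transfer genes here.

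The data were polyA RNA-seq counts from epithelium scraped from the small intestine of 6 mice, with a library for each. The 3 knockout mice (423, 476 and 477) were positive for Vil1-Cre-ERT2 and carried loxP/loxP alleles of Ncor1, the gene of a nuclear receptor corepressor, and of another corepressor gene. The 3 control mice (482, 483 and 486) carried the same floxed alleles without the transgene. Vil1-Cre-ERT2 is a Cre recombinase driven by the villin promoter of intestinal epithelium and switched on by tamoxifen, which the labels give as intraperitoneal injections of 15 mg per 100 g body weight for 5 days from an age of 8 to 9 weeks. Only the knockout mice carried the transgene, so its own effects and those of the deletion cannot be told apart. For all 6 mice the labels also give a cage placement at day 21. The labels do not give the sex of the mice or the section of small intestine behind each library.

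Cells make cholesterol from acetyl-CoA by way of mevalonate, isoprenoid diphosphates, squalene and lanosterol. They also take it up in lipoproteins, whose cholesteryl esters are hydrolysed in lysosomes before the free sterol is passed to other membranes. When membrane sterol falls, the transcription factor SREBP2 is cut free from the endoplasmic reticulum and raises the genes of this pathway; the related SREBP1 acts mainly on fatty acid synthesis genes, and INSIG proteins hold both back when sterol is plentiful. The small intestinal epithelium is a site of both cholesterol absorption and cholesterol synthesis.

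In the knockout epithelium most of the early enzymes were more abundant, while the reductase that completes cholesterol (Dhcr7) and the lysosomal sterol exporter (Npc1) were less abundant. Of the 26 members that could be tested, 14 rose, 2 fell and 10 did not pass the test (quasi-likelihood test of edgeR, p-values adjusted by Benjamini-Hochberg over 15028 genes, threshold 0.05). Over all genes tested, 17.3% rose, 18.3% fell and 35.6% passed in either direction, so the share that rose was above the background and the share that fell below it. The median log2 fold change, knockout over control, was 0.77 over these members and -0.06 over all genes tested. Every knockout library was above every control library in 16 members, against 23.9% of all genes tested. Every knockout library was below every control library in 3 members, against 26.4% of all genes tested. Together these 19 members without overlap compare with 50.3% of all genes tested. All 26 had at least 2.33 CPM (counts relative to library size, scaled between libraries by TMM) in every library, so none was tested because of only 1 genotype. The remaining member, Idi2, had no count in any library.

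The number that rose depended on the controls and on the scaling. Without control 483, the library that was lowest of the 6 in 13 members, 8 rose and 2 fell. The knockout libraries had more of their counts in a few genes, and under scaling by library size only, 6 members rose and 4 fell, against 7.54% and 30.3% of all genes. That scaling put the median log2 fold change of all genes at -0.49. Under each of the 16 other settings tried, Acat2, Pmvk, Mvd, Idi1, Lss and Lipa rose and Dhcr7 and Npc1 fell.

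**Figure D1:**
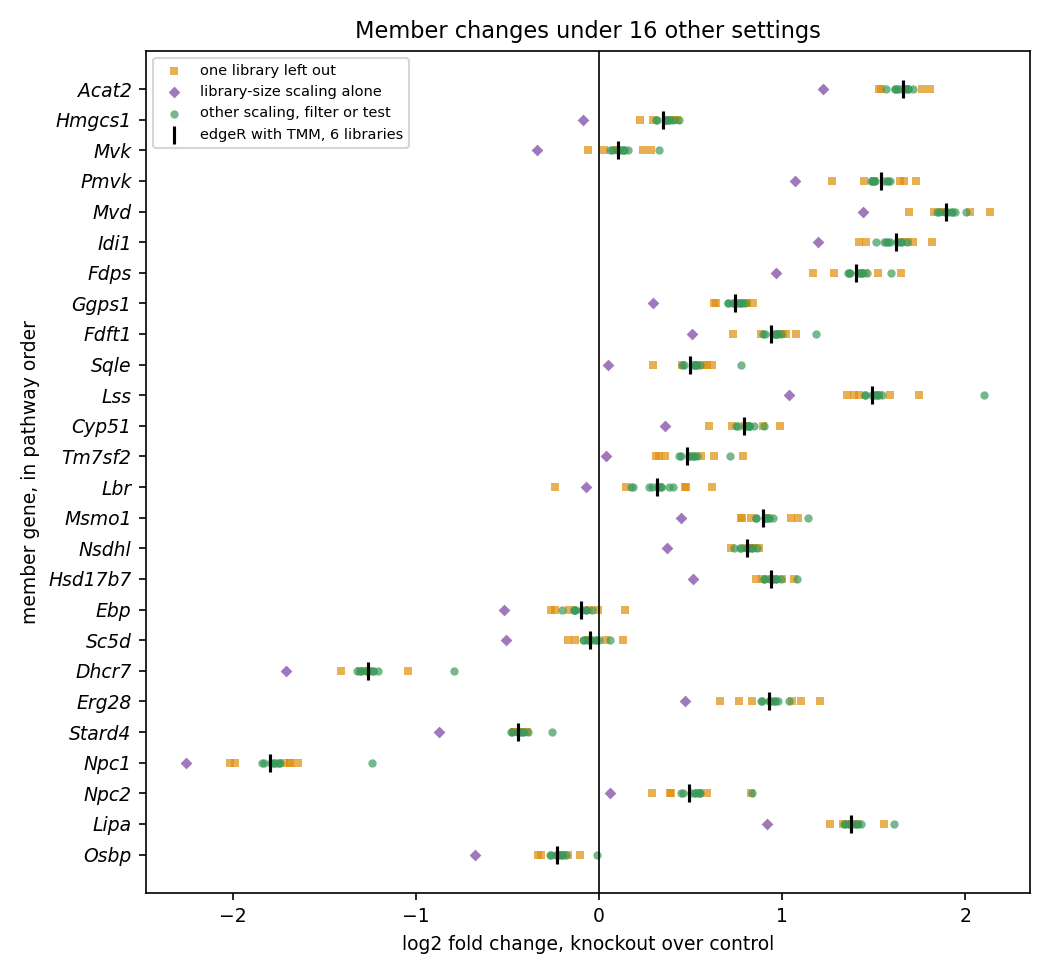
Log2 fold change (knockout over control) of each tested member with all 6 libraries (black bars) and under 16 other settings, in pathway order from the top. Library-size scaling (diamonds) lies left of the other points for most members, and Dhcr7 and Npc1 stay below 0 throughout.

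**Figure D2:**
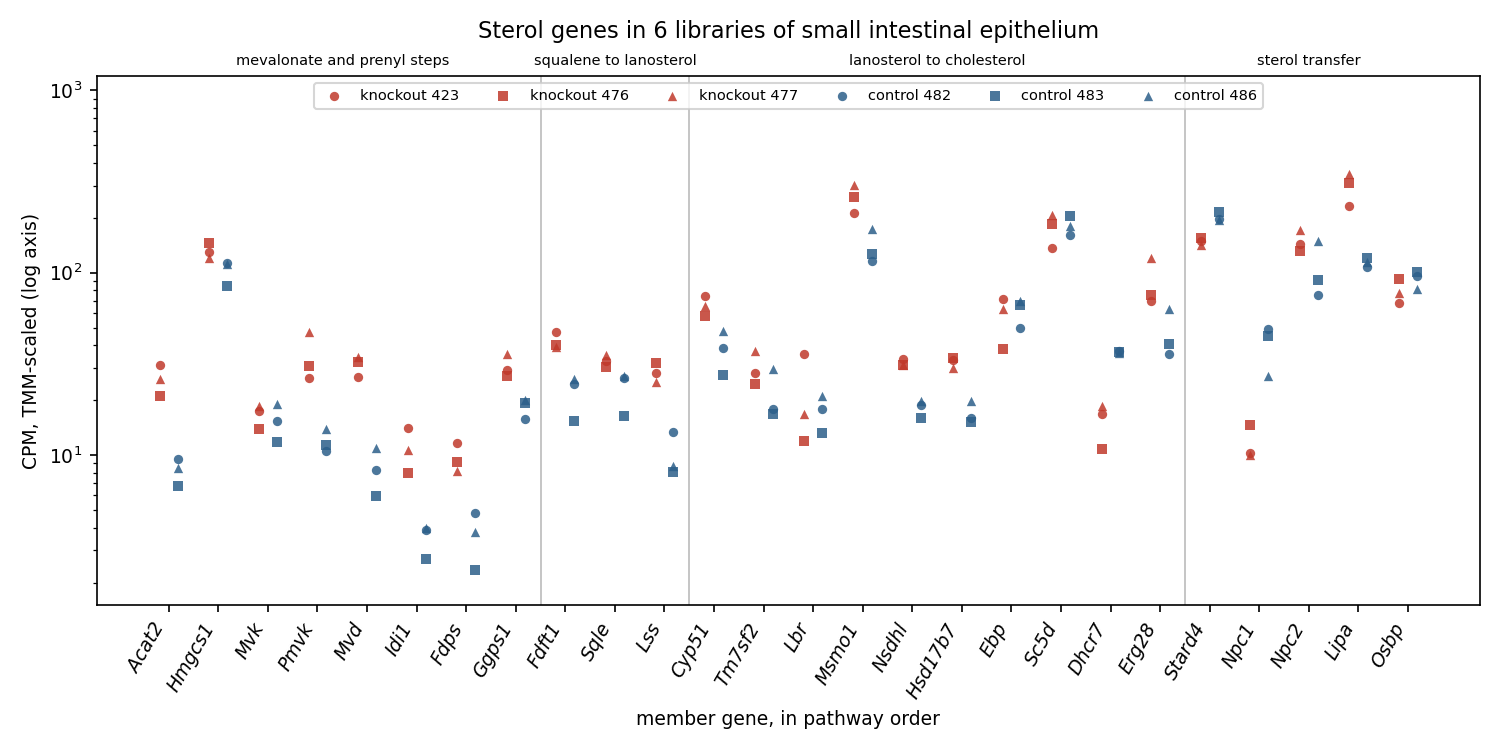
TMM-scaled CPM (log axis) of the 26 members with counts, in pathway order, with the 3 knockout libraries left of the 3 control libraries for each gene. Knockout points lie above control points over most of the left part, and below them for Dhcr7 and Npc1.

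Of the 8 mevalonate and prenyl genes tested, 6 rose and none fell (17.3% of all genes rose and 18.3% fell). The median log2 fold change of the 8 was 1.47. Acat2, whose product condenses acetyl-CoA to acetoacetyl-CoA, stood at 31.2, 21.1 and 25.9982 CPM in knockouts 423, 476 and 477, against 9.51, 6.75 and 8.51 CPM in controls 482, 483 and 486. The genotypes did not overlap, and the fold difference was 3.15 (log2 fold change 1.66, SE 0.23, adjusted p = 0.00103). Hmgcs1, the HMG-CoA synthase of the cytosol, was at 129.8, 145 and 120.5 CPM in knockouts, against 113, 84.8 and 112 CPM in controls. Its genotypes did not overlap either, but the difference was small (log2 fold change 0.35, SE 0.20) and did not pass the test (adjusted p = 0.202). Hmgcs1 was the most abundant enzyme of this group per kilobase of exon in either genotype, at means of 28.7 CPM per kb in knockouts and 22.5 in controls.

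The 3 enzymes that turn mevalonate into isopentenyl diphosphate did not move alike. Mevalonate kinase (Mvk) was at 17.4, 13.8 and 18.5 CPM in knockouts, against 15.3, 11.8 and 19.04 CPM in controls, with overlapping libraries (log2 fold change 0.10, SE 0.24, adjusted p = 0.754). Phosphomevalonate kinase (Pmvk) was at 26.5, 30.8 and 47.1 CPM in knockouts, against 10.5, 11.4 and 13.9 CPM in controls, a 2.91-fold rise (log2 fold change 1.54, SE 0.26, adjusted p = 0.00228). Mevalonate diphosphate decarboxylase (Mvd) was at 26.7, 32.5 and 34.6 CPM in knockouts, against 8.26, 5.94 and 10.99 CPM in controls. Its rise of 3.71-fold was the largest of all members (log2 fold change 1.89, SE 0.26, adjusted p = 0.000883), except with the length and GC trend removed, where Lss (2.10) was above Mvd (2.001).

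Downstream, Idi1, the isomerase of isopentenyl diphosphate, was at 14.1, 7.94 and 10.6 CPM in knockouts, against 3.90, 2.702 and 4.003 CPM in controls, a 3.07-fold rise (SE 0.30 on the log2 scale, adjusted p = 0.00356). Its nearby paralog Idi2 had 0 counts in all 6 libraries, which allows at most 0.0586 to 0.173 CPM per library (3 counts, counting error only). Fdps, which makes farnesyl diphosphate, was at 11.6, 9.21 and 8.17 CPM in knockouts, against 4.81, 2.33 and 3.77 CPM in controls, with no overlap (log2 fold change 1.40, SE 0.31, adjusted p = 0.00866). Ggps1, which extends it to geranylgeranyl diphosphate for protein prenylation, was at 29.2, 27.1 and 35.9 CPM in knockouts, against 15.8, 19.4 and 20.0 CPM in controls. It rose 1.67-fold (adjusted p = 0.0197), but the call was lost without control 482, control 483 or knockout 477 (adjusted p of 0.0803, 0.0542 and 0.0815). Exons of Ggps1 overlap those of Arid4b on the opposite strand over 257 bases. Arid4b fell (log2 fold change -0.95, adjusted p = 0.0287), and its part in the Ggps1 value was not tested.

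**Figure D3:**
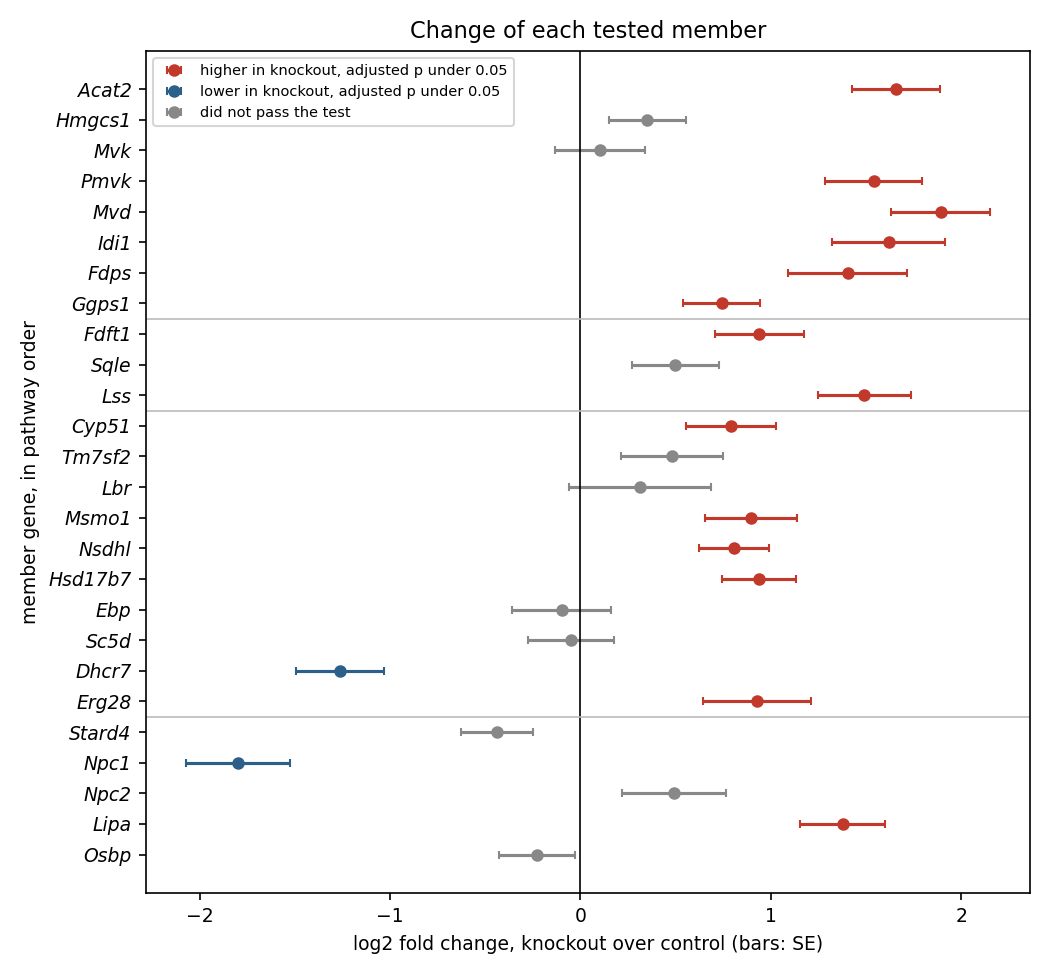
Log2 fold change (knockout over control) of each tested member with its SE from the edgeR fit, in pathway order from the top; red marks higher and blue lower at an adjusted p under 0.05. Mvd has the highest value (1.89) and Npc1 the lowest (-1.80). No rise from Cyp51 to Erg28 exceeds 2-fold, but the early genes Hmgcs1 (0.35) and Mvk (0.10) are low as well.

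From farnesyl diphosphate to lanosterol, 2 of 3 genes rose and none fell (17.3% of all genes rose and 18.3% fell). Fdft1, squalene synthase, was at 47.2, 40.3 and 39.2 CPM in knockouts, against 24.6, 15.4 and 26.1 CPM in controls (log2 fold change 0.94, SE 0.23, adjusted p = 0.0136; 0.0506 without control 483). It shares 774 bases of exon with the opposite strand of Ctsb, a cathepsin gene at 741 to 1130.0 CPM in knockouts and 391 to 602 CPM in controls, and the strand setting of the counting is not given in the sources used here. Sqle, the squalene epoxidase, was at 32.7, 30.3 and 35.5 CPM in knockouts, against 26.3, 16.4 and 27.03 CPM in controls. Here the genotypes were close but did not overlap, and the gene did not pass (log2 fold change 0.50, SE 0.23, adjusted p = 0.115; 0.0264 with each library's trend with exon length and GC content removed). Lss, which closes the ring to lanosterol, was at 28.2, 31.9 and 25.1 CPM in knockouts, against 13.4, 8.10 and 8.75 CPM in controls. It rose 2.81-fold (log2 fold change 1.49, SE 0.24, adjusted p = 0.00216), or by a log2 fold change of 2.10 with that trend removed.

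Of the 10 genes between lanosterol and cholesterol, 5 rose, 1 fell and 4 did not pass, and no rise exceeded 2-fold (17.3% of all genes rose and 18.3% fell). This count rested on several libraries and on the scaling: 1 rose without control 483, 2 without control 482 and 2 without knockout 477, and under scaling by library size only 0 rose and 1 fell. Cyp51, the lanosterol demethylase, was at 74.5, 57.6 and 65.3 CPM in knockouts, against 38.6, 27.5 and 48.0 CPM in controls (log2 fold change 0.79, SE 0.24, adjusted p = 0.0275). The genotypes did not overlap, but the call was lost without control 482, control 483, knockout 423 or knockout 477 (adjusted p of 0.0693, 0.111, 0.0706 and 0.0623). The next reduction can be done by the products of Tm7sf2 and of Lbr, and LBR is also a protein of the inner nuclear membrane. Tm7sf2 was at 28.2, 24.6 and 37.3 CPM in knockouts, against 17.96, 16.8 and 29.6 CPM in controls (adjusted p = 0.183; 0.0264 without control 486). It shares 532 exon bases with Vps51 on the same strand, and Cyp51 shares 166 with Akap9 on the opposite strand. The part of these overlaps was not tested. Lbr was at 35.8, 12.0 and 16.8 CPM in knockouts, against 17.9, 13.1 and 21.0 CPM in controls (adjusted p = 0.535). Knockout 423 stood apart in Lbr, and without it the log2 fold change of 0.31 became -0.24.

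The 4 genes of the sterol demethylation that comes after that by Cyp51 rose together. Msmo1, the methylsterol oxidase, was at 213, 259 and 304 CPM in knockouts, against 116, 127 and 173 CPM in controls (log2 fold change 0.90, SE 0.24, adjusted p = 0.0184). Nsdhl, the dehydrogenase that follows, was at 33.5, 31.1 and 31.0 CPM in knockouts, against 18.8, 16.01 and 19.8 CPM in controls (log2 fold change 0.81, SE 0.18, adjusted p = 0.00972). Hsd17b7, the ketoreductase, was at 33.0, 34.1 and 30.1 CPM in knockouts, against 15.9, 15.1 and 19.7 CPM in controls (log2 fold change 0.94, SE 0.19, adjusted p = 0.00613). In these genes every knockout library lay above every control, and in Nsdhl and Hsd17b7 the knockouts were also close to each other. Erg28, which in yeast holds these enzymes together as a scaffold, was at 70.2, 75.4 and 120.0 CPM in knockouts, against 36.0, 40.7 and 62.9 CPM in controls (log2 fold change 0.93, SE 0.29, adjusted p = 0.0309). The calls of Msmo1 and Erg28 were lost without control 482 (adjusted p of 0.0666 and 0.0989), control 483 (0.0736 and 0.0978) or knockout 477 (0.0712 and 0.118). That of Nsdhl was lost without control 483 (0.0505), and Hsd17b7 passed without each library in turn.

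The closing steps of synthesis did not follow. Ebp, the sterol isomerase, was at 71.9, 38.2 and 63.3 CPM in knockouts, against 49.9, 66.1 and 69.7 CPM in controls (log2 fold change -0.10, SE 0.26, adjusted p = 0.788). Sc5d, the lathosterol desaturase, was at 137, 184 and 207 CPM in knockouts, against 161, 205 and 180 CPM in controls (log2 fold change -0.05, SE 0.23, adjusted p = 0.884). In both genes the libraries of the genotypes were intermixed, and the sign of the Sc5d value turned under 4 of the 16 other settings. Dhcr7, the reductase that makes cholesterol from its dehydro precursor, was at 16.7, 10.7 and 18.5 CPM in knockouts, against 37.1, 36.6 and 36.2 CPM in controls. The 3 controls were nearly equal, all knockouts were lower, and the fall was 2.40-fold (log2 fold change -1.26, SE 0.23, adjusted p = 0.00358). The difference was -0.79 with the length and GC trend removed and -1.71 with library-size scaling alone, past the threshold in either case.

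Among the 5 sterol transfer genes, 1 rose, 1 fell and 3 did not pass, near the shares over all genes (17.3% rose and 18.3% fell). Lipa, the lysosomal acid lipase that frees cholesterol and fatty acids from their esters, was at 232, 311 and 348 CPM in knockouts, against 108, 120.4 and 115 CPM in controls, with a mean of 297 ± 58.9 CPM in knockouts and 114 ± 6.40 CPM in controls (SD, n = 3 each; edgeR log2 fold change 1.38, SE 0.22, adjusted p = 0.00205). Npc2, the soluble protein that receives the freed cholesterol in the lysosome, was at 143, 131 and 171 CPM in knockouts, against 75.5, 91.6 and 149.9 CPM in controls. Control 486 lay within the knockout range, and Npc2 did not pass (log2 fold change 0.49, SE 0.27, adjusted p = 0.184; 0.0178 without control 486). Npc1, the membrane protein that takes cholesterol from NPC2 and passes it out of the lysosome, was at 10.2, 14.6 and 9.95 CPM in knockouts, against 49.0, 45.0 and 27.3 CPM in controls. Its fall of 3.48-fold was the largest of all members (log2 fold change -1.80, SE 0.27, adjusted p = 0.00153). Npc1 shares 511 exon bases with the opposite strand of Rmc1, which also fell (log2 fold change -0.78, adjusted p = 0.0133), and the part of that overlap was not tested. Npc1 has 11317 exon bases, the most of any member; long genes had lower fold changes in these libraries (Spearman rho -0.375 across 15018 genes, which are not independent), and with the length and GC trend removed the Npc1 value was -1.24.

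The other transfer genes changed little. Stard4, a soluble carrier of cholesterol between membranes, was at 149.7, 155 and 141 CPM in knockouts, against 197, 214 and 195 CPM in controls. All knockouts were below all controls, but the log2 fold change of -0.44 (SE 0.19) did not pass (adjusted p = 0.0946); with library-size scaling alone it was -0.88 with an adjusted p of 0.00903. Osbp, which exchanges sterol for a phosphoinositide between the endoplasmic reticulum and the Golgi, was at 68.4, 91.8 and 77.0 CPM in knockouts, against 96.2, 101 and 81.0 CPM in controls (log2 fold change -0.23, SE 0.20, adjusted p = 0.397; -0.68 and 0.0342 with library-size scaling alone).

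Ratios of members within a library do not depend on how libraries are scaled to each other. They can still carry each library's trend with exon length and GC content, which was not removed here. The paired genes differ in length, as in Npc1 with 11317 exon bases, Npc2 with 5438 and Lipa with 6780. The 5 ratios of counts per kilobase given here were picked after the values of the members were seen, so they are a description and add no evidence of their own. Mvd to Mvk was 2.22, 3.38 and 2.69 in knockouts, against 0.775, 0.726 and 0.831 in controls. Dhcr7 to Sc5d was 0.102, 0.0489 and 0.0745 in knockouts, against 0.192, 0.150 and 0.168 in controls. Npc1 to Npc2 was 0.0343, 0.0535 and 0.0280 in knockouts, against 0.312, 0.236 and 0.0875 in controls. In each of these, every knockout lay on 1 side of every control. Lipa to Npc1 was 37.9, 35.5 and 58.3 in knockouts, against 3.66, 4.46 and 7.02 in controls. The ratio of Tm7sf2 to Lbr overlapped, at 0.850, 2.21 and 2.40 in knockouts, against 1.09, 1.38 and 1.53 in controls.

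**Figure D4:**
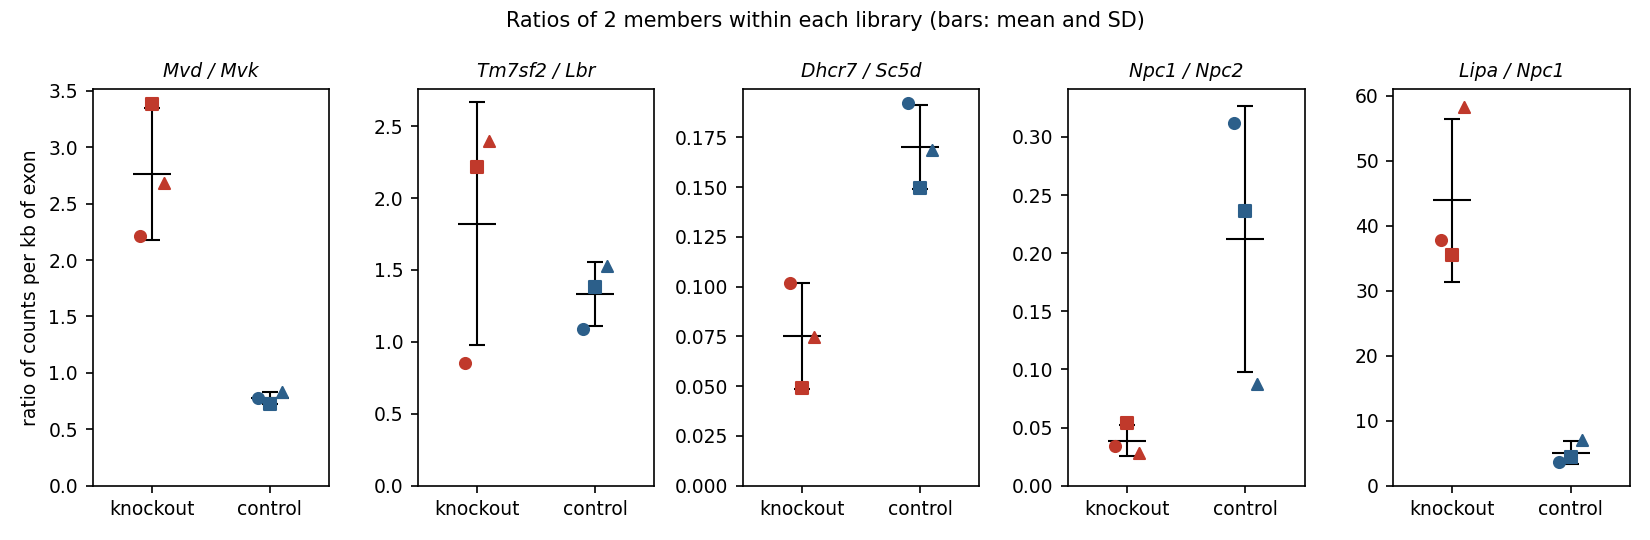
Ratio of counts per kilobase of exon between 2 members in each library, knockouts left of controls in each panel, with the mean and SD of 3 libraries as bars. Lipa to Npc1 averages 43.9 in knockouts and 5.05 in controls, and only Tm7sf2 to Lbr overlaps between genotypes.

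By level per kilobase, Lipa (43.8 CPM per kb), Msmo1 (42.1) and Sc5d (36.2) were the most abundant members in knockouts, and Sc5d (37.4), Stard4 (36.1) and Ebp (26.8) in controls. Npc1 was the lowest member with counts in knockouts at 1.03 CPM per kb, and in controls Fdps was, at 0.864. Of the 4208 exon bases of Fdps, 1124 are shared with Gm43738, a gene on the same strand with 0 counts in every library, and how reads there were counted is not given. Of the 26 pairs of neighbours among the 27 members (Idi2 last), 22 overlapped between libraries in knockouts and 22 in controls, so most adjacent ranks do not differ beyond the spread. Lengths are all annotated exon bases of a gene, and which transcripts were in use was not examined. The TMM-scaled CPM of the members summed to 1712, 1821 and 2041 in knockouts 423, 476 and 477, against 1281, 1320 and 1481 in controls 482, 483 and 486. These sums are not shares of a library, because they depend on the TMM factors. The factors were 0.975, 0.871 and 0.741 in these knockouts, against 1.28, 1.13 and 1.09 in these controls. With the factors taken out, the sums of the genotypes overlapped.

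The promoters of some members are shown by sequence: Hmgcs1, which carried the sterol element letters and did not pass, Mvd, which rose, and Dhcr7, which fell. Whether promoter letters bear on these changes was not tested. The 250 bases before the RefSeq start (GRCm38.p6, the mm10 build) were searched on both strands for TCACNCCAC, the core of the sterol regulatory element that SREBP binds, for CCAAT, the letters bound by NF-Y, a partner of SREBP, and for CACGTG, an E-box. Matches are in capitals, 5′ to 3′ on the strand of the gene. For Dhcr7, which has 3 RefSeq starts, the window nearest the annotated gene start is shown.
Hmgcs1, chr13:119690101-119690350, plus strand: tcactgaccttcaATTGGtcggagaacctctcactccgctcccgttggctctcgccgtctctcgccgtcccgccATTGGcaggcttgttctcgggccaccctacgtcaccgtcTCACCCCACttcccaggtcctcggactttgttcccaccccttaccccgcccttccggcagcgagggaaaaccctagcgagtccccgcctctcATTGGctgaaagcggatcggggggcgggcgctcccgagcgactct
Mvd, chr8:122443423-122443672, minus strand: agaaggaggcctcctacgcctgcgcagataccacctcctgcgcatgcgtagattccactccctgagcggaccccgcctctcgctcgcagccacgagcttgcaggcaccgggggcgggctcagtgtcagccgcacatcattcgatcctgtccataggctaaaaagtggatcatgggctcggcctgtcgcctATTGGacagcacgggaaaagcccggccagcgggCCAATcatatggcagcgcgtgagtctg
Dhcr7, chr7:143822917-143823166, plus strand: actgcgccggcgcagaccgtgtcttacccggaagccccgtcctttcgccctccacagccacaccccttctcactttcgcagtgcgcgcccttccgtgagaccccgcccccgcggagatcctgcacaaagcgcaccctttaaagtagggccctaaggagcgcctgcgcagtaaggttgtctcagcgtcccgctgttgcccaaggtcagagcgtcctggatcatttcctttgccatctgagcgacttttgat

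The Hmgcs1 window held 3 CCAAT matches, starting 237, 176 and 45 bases before the start, and the sterol element letters at 137 bases. The Mvd window held 2 CCAAT matches, at 60 and 27 bases, and this Dhcr7 window held 0 matches of any of the 3 motifs. No match overlapped another. Promoter windows were found for 22 of the 27 members (25 windows). Of these 22 genes, 19 had a window with CCAAT, in 19 windows, against 33.8% of all 32851 windows, and Acat2, Idi2 and Erg28 had none. TCACNCCAC was found for 1 member, Hmgcs1, against 1.05% of all windows, and CACGTG for 3 members (Hsd17b7, Sc5d and another Dhcr7 window), against 6.02%. The median GC content was 62.4% in member windows and 52.4% in all windows. CCAAT was present in members that rose, such as Mvd and Lss, and in members that did not pass, such as Ebp and Sc5d. It was also present in Dhcr7, which fell, in a window other than the one shown.

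Of the 14 genes that control SREBP processing or bind beside it, 3 rose and 1 fell (17.3% and 18.3% over all genes), at a median log2 fold change of -0.20; under scaling by library size only, 2 rose and 6 fell. Insig1, itself a sterol-regulated gene, was at 596, 755 and 770.1 CPM in knockouts, against 82.2, 66.6 and 73.2 CPM in controls (log2 fold change 3.26, SE 0.24, adjusted p = 3.98e-05). Srebf1, the gene of SREBP1, was at 571, 921 and 701 CPM in knockouts, against 90.1, 73.4 and 56.6 CPM in controls (log2 fold change 3.32, or 4.003 with the length and GC trend removed). Both values were above that of every member. Insig2 also rose (log2 fold change 1.09, adjusted p = 0.0244), but its libraries overlapped and the call was lost without control 482, control 486, knockout 476 or knockout 477 (adjusted p of 0.0662, 0.0580, 0.0714 and 0.0855). Erlin1, whose product takes part in the sterol-dependent degradation of proteins at the endoplasmic reticulum, was at 53.8, 55.9 and 61.8 CPM in knockouts, against 105, 150.007 and 126 CPM in controls, and fell (log2 fold change -1.15, adjusted p = 0.00313). Srebf2, the gene of SREBP2 and named after its values were seen, was at 56.3, 52.4 and 39.5 CPM in knockouts, against 72.9, 51.9 and 66.4 CPM in controls, and did not pass (log2 fold change -0.37, SE 0.22, adjusted p = 0.207).

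Genes that use isoprenoids mostly did not pass: 2 of 15 rose and none fell, below the 35.6% of all genes that passed in either direction, and without control 483 none passed. Under scaling by library size only, 0 rose and 3 fell. Coq2, which attaches the prenyl tail of ubiquinone, had a log2 fold change of 1.03 (adjusted p = 0.0162), and Cox10, the haem farnesyltransferase, one of 0.83 (adjusted p = 0.0340). The Coq2 call was lost without control 482, control 483 or knockout 477 (adjusted p of 0.0533, 0.0575 and 0.0509), and the Cox10 call without control 483, control 486 or knockout 423 (0.116, 0.0537 and 0.100). Fntb, a farnesyltransferase subunit for proteins, had -0.69 and did not pass (adjusted p = 0.0530).

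Of 26 tested genes of other sterol handling, 9 rose and 7 fell (17.3% and 18.3% over all genes). The direction was mixed, at a median log2 fold change of 0.10. Npc1l1, the cholesterol uptake transporter of the brush border, was at 171, 266 and 207 CPM in knockouts, against 1096, 1067 and 723 CPM in controls (log2 fold change -2.16, SE 0.28, adjusted p = 0.000617). The carrier gene Stard5 was at 17.3, 23.7 and 12.8 CPM in knockouts, against 3.31, 1.92 and 2.87 CPM in controls (log2 fold change 2.72, SE 0.31, adjusted p = 0.000351). Stard3nl, a sterol-related protein of late endosomes, rose as well (log2 fold change 1.48, adjusted p = 0.00173). The genes that fell numbered 3 without control 482, 2 without control 483, 1 without knockout 423 and 3 without knockout 477, and under scaling by library size only 4 rose and 10 fell. Among 12 lipogenic genes, 6 rose and none fell (17.3% and 18.3% over all genes), at a median log2 fold change of 1.31. Of these 12 genes, 4 rose under scaling by library size only and 9 with the length and GC trend removed. Among them Scd1 and Scd2, stearoyl-CoA desaturases, had log2 fold changes of 9.75 and 5.32 and Me1, the malic enzyme of the cytosol, one of 2.89, all larger than that of any member.

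The targeted gene Ncor1 was at 31.3, 36.4 and 22.5 CPM in knockouts, against 140.4, 137 and 99.3 CPM in controls (log2 fold change -2.06, adjusted p = 0.000447, or -1.40 with the length and GC trend removed), counted over the whole gene. Epithelial markers (9 genes, 1 of them lower) summed to between 9163 and 13120 CPM in knockouts and between 12040 and 13470 CPM in controls, so the libraries carried their labelled tissue. In bulk tissue, fewer cells of a type and less RNA per cell cannot be told apart. Summed crypt and proliferation markers (11 of 12 tested, 1 higher and 1 lower; 5 lower without knockout 423) were 394, 165 and 199 CPM in knockouts, against 206, 104 and 154 CPM in controls. Knockout 423 was thus highest in these markers, as it was in 8 members (Acat2, Idi1, Fdps, Fdft1, Cyp51, Lbr, Nsdhl and Ebp), and control 483 was lowest, as it was in 13 members; their part in those values was not tested.

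Other marker lists bear on the lysosomal genes, which macrophages also express. Macrophage markers (12 genes; 1 of 10 tested higher and 1 lower) summed to 25.99 to 32.2 CPM in knockouts and 22.6 to 60.6 CPM in controls, with Cd163 at 0 in controls. Their part in the Lipa value was not tested. Lymphocyte markers (13 genes; 1 of 10 tested lower, and 2 higher without control 483) summed to 559 to 589 CPM in knockouts and 157 to 770 CPM in controls. Mesenchyme and muscle markers (13 genes, 10 tested, none passing) summed to 7.51 to 47.9 CPM in knockouts and 11.7 to 39.8 CPM in controls. Adipocyte markers (7 genes, 2 tested, none passing) summed to 137 to 239 CPM in knockouts and 150.4 to 201 CPM in controls, with Adipoq, Lep and Retn at 0 in knockouts. Erythrocyte genes (5 of 5 higher; 0 without control 482 or control 483 and 1 without control 486) summed to 35.5 to 543 CPM in knockouts and 7.95 to 22.2 CPM in controls, and tuft cell markers (8 of 8 lower) to 2.59 to 9.19 CPM in knockouts and 75.0 to 219 CPM in controls.

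Enterocyte markers (10 genes, 5 higher and 2 lower; 3 higher without control 486, knockout 476 or knockout 477) summed to between 113400 and 204700 CPM in knockouts and between 59910 and 84930 CPM in controls. Markers of proximal small intestine (9 genes; 3 of 7 tested higher and 1 lower) summed to 13410 to 19710 CPM in knockouts and 5242 to 7008 CPM in controls, and distal markers (7 genes, 1 higher and 2 lower) to 1727 to 2360 CPM in knockouts and 2545 to 3826 CPM in controls. The enterocyte and proximal sums thus rose in the knockouts, as did the members that rose, while the distal sum fell. Fabp1 is in both the enterocyte and the proximal list, so these sums are not separate observations. With the 20 most abundant genes left out, 2 enterocyte markers were tested, 0 higher and 1 lower. Of the proximal markers 6 were then tested, 2 higher and 1 lower. The part of these 3 sums in the members' values was not tested.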

How the data were processed

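Gene counts came from 6 polyA RNA-seq libraries, 3 from knockout and 3 from control mice, grouped by sample title; animal numbers are not shared between groups. The authors deposited whole-number counts per gene, not normalized, and variance-stabilised values on a log2 scale. The submitters' processing notes name STAR 2.7.9a, featureCounts (Subread 1.6.2) and build mm10, and also DESeq2 1.23.10, fastp 0.21.0, FastQC 0.11.7 and bcl2fastq. The sources used here do not give the annotation, strand setting or filters. Total counts were 23476031 to 46835165 per library, and 3 counts correspond to 0.0586 to 0.173 CPM. No pair of libraries of 1 genotype was a repeat (chi-square over degrees of freedom at least 71.3). Of 55450 identifiers 55104 matched a symbol.

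Counts were tested with edgeR 4.0.16 in R 4.3.3 (filterByExpr, TMM, robust quasi-likelihood test, Benjamini-Hochberg over 15028 genes). The SE is the log2 fold change over the square root of F. Nothing says whether mice shared a litter, so p-values measure the spread between these 3 and 3 mice. Alternatives were 3 scalings, 2 filters, removal of the 20 most abundant genes, DESeq2 1.42.0, limma 3.58.1 on counts (voom) and on the deposited log2 values, removal of the length and GC trend, and each library left out. Positions, lengths and overlaps came from GENCODE M21 (mm10), and promoters from RefSeq.

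The members, the gene lists and the tests were chosen with earlier results of these data known. Named were all members, Ncor1, the 3 genes with the smallest p of each other list and all called SREBP control genes. The other targeted gene is not reported here.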

Additional observations from a re-analysis of the deposited data

How the results depend on the processing

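Members numbered 14 higher and 2 lower. With 1 library left out, 8 to 16 were higher and 2 to 2 lower, and over all genes 1510 to 2958 were higher and 1748 to 2982 lower (2596 and 2752 with all libraries). With library-size scaling alone, 6 members were higher and 4 lower, and 1133 genes higher and 4554 lower, since that scaling moves the median of all genes to -0.49. Of 416 member values under the 16 alternatives, 378 kept direction and side of the threshold, 23 calls were lost, 5 were gained and 10 signs turned, all of uncalled members. With library-size scaling alone the log2 fold change became -0.087 for Hmgcs1, -0.34 for Mvk and -0.072 for Lbr. Sc5d became 0.0014 with upper-quartile scaling and 0.061 with the length and GC trend removed. With 1 library left out, Mvk ranged from -0.060 to 0.28, Sc5d from -0.17 to 0.13, Lbr from -0.24 to 0.62 and Ebp from -0.26 to 0.14. The cause of these turns was not tested beyond the scaling itself.

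No paired analysis was possible because the knockout and control mice share no replicate numbers.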
